A study of Mus musculus with 6 samples.

Results

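The weakest UTX sites of wild-type cells were the 1173 of 6739 sites in the authors' deposited table whose concentration in wild-type (WT) cells lay under 4.3 and above the concentration in UTX-deficient cells. The concentration of a group is the log2 of its mean normalized read number at a site, so the threshold of 4.3 stands for 19.7 normalized reads. Both concentrations chose the members, so levels, folds and FDR values from the same contrast are given as a description, with no test. For comparison, the other 5545 sites higher in WT were divided by WT concentration into 4 bands of 1387, 1386, 1386 and 1386 sites, with band 4 the strongest. The remaining 21 sites were higher in UTX-deficient cells.

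The libraries came from CD8+ T cells sorted as Ly108+CXCR6-, the surface phenotype of progenitor cells, from the pancreatic lymph nodes of mice. The 3 WT libraries came from NOD.NY8.3 mice, a diabetes-prone NOD strain whose CD8+ T cells carry the NY8.3 transgenic T cell receptor. The 3 UTX-deficient libraries came from UTXTCD.NY8.3 mice, which carry the same receptor and lack UTX in T cells. The labels name neither the Cre driver nor age, sex, or how many animals gave each library, so the spread between libraries may be technical. The study asked which regions UTX binds, with deletion as the reference for the antibody. The table assigned 1 site each to Cd3d and Cd3e and 0 to Cd3g, chains of the T cell receptor complex, and 2 sites each to Cd8a and Cd8b1, the CD8 coreceptor, and none of these sites was weak.

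UTX, encoded by the X-linked gene Kdm6a, removes methyl groups from lysine 27 of histone H3, a mark that Polycomb complexes place on repressed genes. It is a subunit of the MLL3 and MLL4 (COMPASS-like) complexes, which methylate lysine 4 of the same histone at enhancers, and it lacks a sequence-specific DNA-binding domain, so it is thought to reach chromatin through these complexes and transcription factors. CUT&Tag reads such binding by tethering the transposase Tn5 to an antibody, so that DNA beside the bound protein is cut and tagged. A weak site is one with few such tags.

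A transcription start of the RefSeq promoter table (GRCm38.p6, the assembly of mm10) lay inside 499 of the 1144 weak sites on chromosomes that the table holds. The 250 bases upstream of 8 of these starts are printed to show what lies before such starts, at sites with extreme values and at cell cycle and T cell genes. They were picked from the named sites after their values had been seen. Wrnip1, an ATPase that interacts with the Werner helicase, had the smallest FDR and the largest fold. Adam17, the protease that sheds TNF and L-selectin, was among the 6 weakest sites, and Bid, a death-inducing member of the BCL2 family, among the 4 with the smallest fold. Ap5z1, a subunit of an endosomal adaptor complex, had its site centred 1 base from the start. Cdc25b and Aurka encode a phosphatase and a kinase of mitotic entry, Jak1 a kinase of cytokine receptors, and Satb1 a chromatin organiser of T cells. Each sequence runs 5′ to 3′ on the strand of its gene and ends at the base before the start. Capitals mark the ETS core CCGGAA, read on either strand, which is the centre of the element bound by ETS family factors such as ETS1 and GABPA.
Wrnip1: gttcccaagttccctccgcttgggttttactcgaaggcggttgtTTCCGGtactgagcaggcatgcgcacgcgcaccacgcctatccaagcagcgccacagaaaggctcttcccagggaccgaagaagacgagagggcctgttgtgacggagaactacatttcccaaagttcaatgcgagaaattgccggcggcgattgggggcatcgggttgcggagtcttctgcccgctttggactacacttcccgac
Cdc25b: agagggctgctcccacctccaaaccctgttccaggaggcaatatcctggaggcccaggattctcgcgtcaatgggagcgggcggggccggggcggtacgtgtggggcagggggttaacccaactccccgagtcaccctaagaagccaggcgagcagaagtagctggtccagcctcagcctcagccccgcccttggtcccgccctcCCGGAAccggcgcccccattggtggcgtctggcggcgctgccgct
Aurka: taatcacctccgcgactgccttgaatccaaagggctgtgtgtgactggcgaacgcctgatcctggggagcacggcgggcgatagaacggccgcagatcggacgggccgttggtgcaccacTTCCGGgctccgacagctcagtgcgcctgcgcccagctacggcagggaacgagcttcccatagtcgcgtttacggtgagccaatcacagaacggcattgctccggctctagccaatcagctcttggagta
Adam17: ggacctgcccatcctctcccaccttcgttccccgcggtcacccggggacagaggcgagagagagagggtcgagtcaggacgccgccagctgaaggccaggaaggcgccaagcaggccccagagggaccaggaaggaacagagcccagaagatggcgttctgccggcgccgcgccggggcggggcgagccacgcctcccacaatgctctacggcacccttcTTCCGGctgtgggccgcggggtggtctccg
Bid: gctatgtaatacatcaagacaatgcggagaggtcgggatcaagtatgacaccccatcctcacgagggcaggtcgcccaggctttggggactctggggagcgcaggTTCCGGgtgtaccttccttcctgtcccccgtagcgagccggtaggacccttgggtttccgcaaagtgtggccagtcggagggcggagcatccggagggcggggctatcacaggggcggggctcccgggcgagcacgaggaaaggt
Ap5z1: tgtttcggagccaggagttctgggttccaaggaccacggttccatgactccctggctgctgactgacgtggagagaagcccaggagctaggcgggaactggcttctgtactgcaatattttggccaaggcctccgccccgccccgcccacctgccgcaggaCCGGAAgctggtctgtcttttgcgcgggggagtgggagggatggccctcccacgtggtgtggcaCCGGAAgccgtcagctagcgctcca
Jak1: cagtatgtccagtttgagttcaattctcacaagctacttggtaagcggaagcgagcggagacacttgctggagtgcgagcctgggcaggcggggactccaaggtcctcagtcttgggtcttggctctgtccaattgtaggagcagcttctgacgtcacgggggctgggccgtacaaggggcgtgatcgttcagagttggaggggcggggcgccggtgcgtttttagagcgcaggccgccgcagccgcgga
Satb1: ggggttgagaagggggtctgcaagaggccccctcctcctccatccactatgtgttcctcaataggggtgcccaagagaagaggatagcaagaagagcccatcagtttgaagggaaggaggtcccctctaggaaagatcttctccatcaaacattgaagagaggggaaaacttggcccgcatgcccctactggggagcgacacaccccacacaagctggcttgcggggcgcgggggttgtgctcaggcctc
Wrnip1 (chr13:32801780-32802029, plus strand) held 1 ETS core, which began at position -206 relative to the start. Cdc25b (chr2:131186698-131186947, plus strand) held 1 at -45 and Aurka (chr2:172370571-172370820, minus strand) 1 at -130. Adam17 (chr12:21373633-21373882, minus strand) held 1 at -30 and Bid (chr6:120916825-120917074, minus strand) 1 at -145. Ap5z1 (chr5:142463681-142463930, plus strand) held 2. Jak1 (chr4:101265224-101265473, minus strand) and Satb1 (chr17:51833291-51833540, minus strand) held none within the bases printed. The printed bases are not all inside the site: 101 of the 250 are at Bid, whose ETS core lies outside it, 169 at Satb1, and most or all at the other genes, where each ETS core marked lies inside the site. GC content ran from 58% in Wrnip1 and Satb1 to 70.4% in Adam17. Satb1 held 5 CpG dinucleotides, fewer than the 15 to 23 of the other 7.

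Over promoters of 300 bases (250 upstream and 50 downstream), weak sites covered the starts of 612 promoters of 574 genes, and no promoter was covered both by a weak and by another site. GC content had a median of 62.3% in these promoters, 64.3% in the 2713 under other sites and 52.7% in all 32851 promoters of the table. The observed CpG number over that expected from base composition had medians of 0.833, 0.822 and 0.384. Promoters under weak sites were thus as CpG-rich as those under stronger sites and richer than the table as a whole, while their GC content was slightly lower.

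The ETS core was present in 236 of the 612 promoters under weak sites, or 38.6% (exact Clopper-Pearson 95% interval 34.7 to 42.5%). The share was 37.9% in band 1, 32.6% in band 2, 30.6% in band 3 and 24.8% (21.3 to 28.5%) in band 4, against 14.9% in all promoters. The stronger the WT signal at a start, the fewer promoters held an ETS core, and the intervals of the weak class and of band 4 did not overlap. The CCAAT box (CCAAT), bound by NF-Y, went the other way, with 42.8% under weak sites, 54.8% in band 4 and 37.4% in all promoters. The CACCC box (CCACCC), bound by KLF factors, was in 36.6% under weak sites, 45.2% in band 4 and 31.5% in all promoters. The GC box (GGGCGG), bound by SP and KLF factors, was in 75.3%, 82.8% and 35.7% of the same 3 sets. Of the 5 sets, weak-site promoters were thus nearest to the table-wide level for the CCAAT box and farthest from it for the ETS core. The E-box CAGGTG was in 18.6% under weak sites, 13.9% in band 4 and 20.2% in all promoters. TATA and AP-1 elements were rarer than in the table as a whole: TATAAA was in 4.90% against 13.6%, and the AP-1 site TGANTCA in 3.27% against 7.81%. The RUNX core TGTGGT (13.7% against 16.8%) and the TCF and LEF core CTTTGA (12.7% against 16.0%) were also somewhat rarer. The CRE core TGACGT was in 15.4% against 7.51%. Under the other sites higher in WT the shares were 3.94% for TATAAA, 3.83% for AP-1, 12.3% for RUNX, 10.1% for CTTTGA and 16.5% for TGACGT. These 5 departures from the table as a whole were thus not particular to weak sites. The full CRE, TGACGTCA, which contains the core TGACGT, was in 2.12% (1.14 to 3.61%) under weak sites against 1.79% in all promoters. It was in 4.32 to 5.37% of bands 1 to 4. All motifs were read on both strands. The intervals treat promoters as independent, no difference was tested, and a match is a run of letters, not a bound site.

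**Figure D1:**
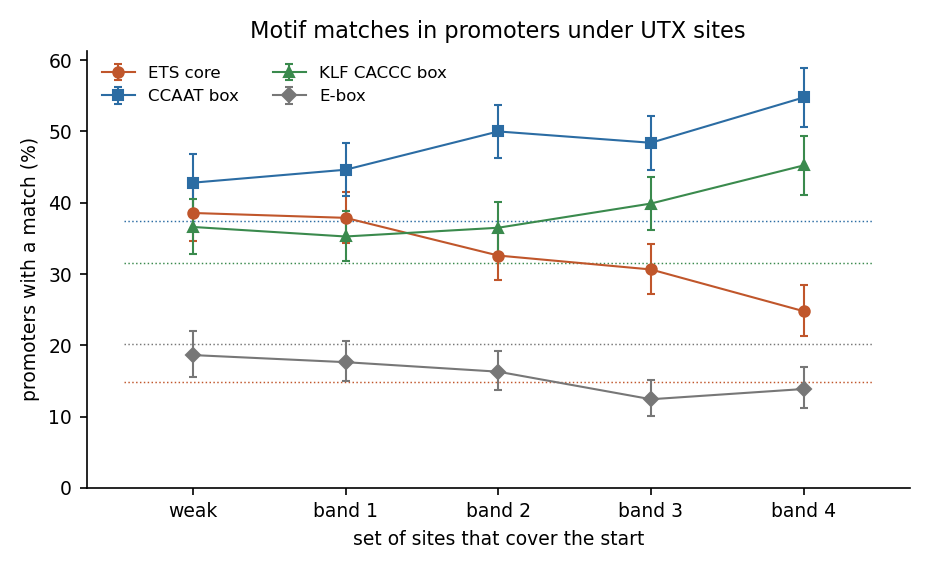
Share of RefSeq promoters of 300 bases that hold each motif (vertical axis, %), for promoters whose start is covered by a weak site or by a site of bands 1 to 4 of WT concentration (horizontal axis). Points are shares, bars exact 95% intervals and dotted lines, in the colour of the motif, the share in all 32851 promoters. The ETS core goes from 38.6% under weak sites to 24.8% in band 4, and the CCAAT box from 42.8% to 54.8%.

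Whole reads per library were recovered from the group concentrations at all 1173 weak sites, each with exactly 1 solution, and the libraries, which have no replicate number in the table, were ranked by depth within a group. The WT libraries had depths of 1.28, 0.916 and 0.792 times the mean of all 6, and the UTX-deficient libraries 1.93, 1.07 and 0.00577 times. With so little depth, the third UTX-deficient library was nearly empty. It gave 0 reads at every weak site, where 1 read would have counted as 173.2 normalized reads. A site with such a read could not have met the rule, so these zeros were fixed in advance. The UTX-deficient side of each weak site therefore rests on the other 2 libraries. At the site assigned to Kdm6a itself (chrX:18162206-18162606), which was not weak, the WT libraries gave 65, 48 and 35 reads and the UTX-deficient libraries 8, 12 and 0. Reads at this site measure antibody signal and do not check the deletion. In cells sorted in bulk, fewer cells with UTX at a site and less UTX per cell cannot be told apart.

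A weak site was a small number of reads. The deepest WT library gave 7 to 40 reads per weak site (median 21), the second 7 to 27 (median 17) and the third 5 to 22 (median 12). All WT libraries together gave 38 to 64 reads (median 52), against a median of 104 at the other sites higher in WT. The 2 UTX-deficient libraries with reads gave 0 to 8 (median 2) and 0 to 6 (median 2) reads per site, with a median of 3 and at most 11 together. Summed over the class, reads in the WT libraries came to 25481, 20085 and 14512, and those in the UTX-deficient libraries to 2003, 2010 and 0.

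On the depth-normalized scale, the mean per weak site was 17.0, 18.7 and 15.6 in the WT libraries (17.1 ± 1.54, SD, n = 3). In the UTX-deficient libraries it was 0.883, 1.60 and 0 (0.827 ± 0.800, SD, n = 3), or 1.24 without the near-empty library and 0.441 without the second library. The 0 of the near-empty library enters this and every other UTX-deficient mean and SD over n = 3. Such an SD therefore does not measure the spread of replicates. The lowest WT library lay above the highest UTX-deficient library at all 1173 weak sites, as it did at 99.7% of all sites with solved reads, so the separation is a property of the table from which the class was drawn. The gap between those 2 libraries ran from 4.78 to 18.3 normalized reads, with a median of 11.7. Where the higher UTX-deficient library had reads, the lowest WT library exceeded it 2.71-fold at least and 8.14-fold at the median.

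**Figure D2:**
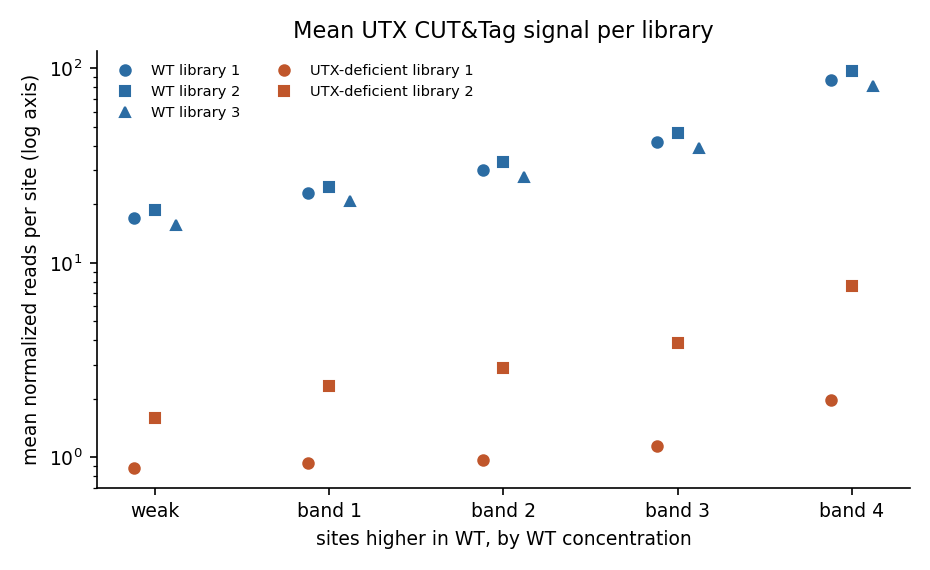
Mean normalized UTX CUT&Tag reads per site in each library (vertical axis, log scale) for the weak sites and the 4 bands of the other sites higher in WT (horizontal axis). Each point is 1 library, and the near-empty UTX-deficient library is left out because its value was 0. WT libraries of the weak class sit at 15.6 to 18.7 and the UTX-deficient libraries at 0.883 and 1.60, and both groups are lowest in the weak class.

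The residual signal in UTX-deficient cells was low in absolute terms at weak sites. The rule and the authors' FDR limit both select for a low residual at sites with few WT reads, so these values are a description. In the deeper UTX-deficient library it was 0.883 normalized reads at weak sites, 0.932 in band 1 and 1.98 in band 4, while the WT mean went from 17.1 to 22.8 and 88.7. As a share of the WT mean, that library thus kept 5.16% at weak sites and 2.23% in band 4. The second library kept 9.34% at weak sites and 8.63% in band 4, so the share differed between these sets in 1 library and hardly in the other. The WT level, which divides this share, also set the bands. Reads were present in both UTX-deficient libraries at 866 weak sites (73.8%), in the deeper alone at 123, in the second alone at 149 and in neither at 35 (2.98%). The mean over the group was below 1 normalized read, where the deposited concentration stops at its floor of 0, at 808 weak sites (68.9%). That was the case at 31.2% of the other sites.

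The weakest members carried as few as 38 WT reads. The site assigned to Klri2, a lectin-like receptor of killer cells, lay at chr6:129747314-129747714, 6830 bp outside the gene, and gave 15, 12 and 11 reads in the WT libraries (12.9 ± 1.09 normalized reads, SD, n = 3) and 1, 1 and 0 in the UTX-deficient libraries. A site 3492 bp outside Lclat1, which remodels cardiolipin, gave the same reads in all 6 libraries. Each WT library lay below its class mean at both sites, and each lay above both UTX-deficient libraries. The site 170 bp from an end of Il10rb, a subunit of the interleukin-10 receptor, gave 19, 12 and 9 WT reads against 1, 1 and 0. The site over the start of Adam17 (chr12:21373609-21374009), whose promoter is printed above, gave 20, 9 and 11 against 1, 1 and 0. After normalization the deepest WT library was the highest of the 3 at both genes. The other 2 sites among the 6 weakest were assigned to Cdkn2aipnl, with 13, 15 and 10 WT reads, and to Arhgef33, with 17, 11 and 11.

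At the threshold, sites on either side were nearly the same. Just inside lay sites at Hps5, Leng9 and Pou2f2, each with 24, 23 and 12 WT reads, and at Ehd1, with 28, 19 and 13. Just outside lay sites at Nedd4l, with 20, 19 and 18 WT reads, Parp10, with 23, 25 and 11, Orai3, with 30, 20 and 11, and Bcl9l, with 28, 18 and 14. All 8 stood at 19.7 normalized reads in WT, so the class ends at a value and not at a gap.

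In the authors' deposited table the log2 fold of weak sites (negative where WT is higher) had a median of -2.66 and ran from -3.70 to -1.71. For bands 1 and 4 of the other sites the medians in the authors' deposited table were -3.12 and -4.21. The deposited fold is not the log2 ratio of the mean reads. Those means were 17.1 against 0.827 normalized reads at weak sites and 88.7 against 3.21 in band 4. The median folds therefore do not compare the share of signal lost. The largest fold belonged to the site over the start of Wrnip1 (chr13:32801782-32802182), with 24, 18 and 16 WT reads against 1, 0 and 0 (19.5 ± 0.720 against 0.172 ± 0.298 normalized reads, SD, n = 3 each). Its FDR, 0.000456, was the smallest of the class in the authors' deposited table. Its 3 WT libraries were among the most even of the named sites once depth was taken into account. Next came the site over a start of Sgk1, a kinase downstream of PI3 kinase, with 24, 19 and 15 against 1, 0 and 0. The authors' deposited table gave the Sgk1 site a log2 fold of -3.69 and an FDR of 0.000492. The site over the start of Tusc2 had no UTX-deficient read at all (27, 20 and 12 against 0, 0 and 0), yet its FDR in the authors' deposited table, 0.00386, was larger than that of the Wrnip1 site. Tusc2's WT libraries were less even (19.4 ± 3.67 normalized reads, SD, n = 3). Those of the Rsl1d1 site were less even still (19.6 ± 4.43, SD, n = 3), with an FDR of 0.000516 in the authors' deposited table. What made these FDR values differ was not tested.

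Small folds went with several reads in both UTX-deficient libraries. The site over the start of Bid (chr6:120916525-120916925) gave 21, 17 and 14 WT reads against 4, 6 and 0. The authors' deposited table gave the Bid site a log2 fold of -1.77 and an FDR of 0.0446. A site assigned to Syne1, a nuclear envelope protein of the nesprin family, gave 23, 18 and 10 against 5, 5 and 0, with -1.75 and 0.0492 in the authors' deposited table. At both genes each UTX-deficient library with reads stayed below each WT library after normalization. Zmynd19, with 19, 16 and 12 against 5, 4 and 0, showed the same layout over its start.

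FDR values in this class were larger than at the other sites higher in WT. In the authors' deposited table their median was 0.0143, 489 weak sites (41.7%) had an FDR under 0.01 and 35 (2.98%) an FDR under 0.001. Among the other sites higher in WT, 96.4% and 87.8% passed those values in the authors' deposited table. Within the class, the 294 sites with the smallest FDR had a median of 18.7 normalized WT reads, a coefficient of variation over the WT libraries of 16.5% and, by the authors' deposited table, a median fold of -3.03 (log2). The 293 sites with the largest FDR had 15.4 normalized WT reads, 23.6% and -2.33. Across the 1173 sites, which share the same 6 libraries, Spearman's rank correlation between FDR and WT concentration was -0.64, while it was 0.21 for the WT coefficient of variation and 0.13 for the UTX-deficient level. How strongly a weak site was called therefore went mainly with its WT level, which is the quantity that defined the class. A transcription start was covered at 43.2% of the sites with the smallest FDR and 43.1% of those with the largest.

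Weak sites were less even across the WT libraries than strong ones. Their coefficient of variation had a median of 21.0%, against 19.0%, 17.5%, 15.4% and 12.9% in bands 1 to 4. These sets differ in read number by construction. Median reads in the WT libraries were 21, 17 and 12 at weak sites and 95, 77 and 55 in band 4. Whether the unevenness of weak sites exceeds the counting error of so few reads was not tested. After normalization the second WT library was the highest at 601 weak sites, the deepest at 327 and the third at 245, and the highest exceeded the lowest 1.497-fold at the median and 4.84-fold at most. The authors' FDR of 0.05 used 8293 tests, of which 1554 lie outside the table and were not analysed here, so weak sites that missed that threshold are not part of the class.

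The shares of weak sites that overlapped a gene and covered a start were close to those of band 1 and above those of band 4, differences that were not tested. A position relative to the gene that the authors assigned could be given for 1162 weak sites. Of these, 54.6% (51.6 to 57.5%) lay within 1 kb of an end of that gene, against 54.2% in band 1 and 51.4% in band 4. In all, 919 weak sites (79.1%) overlapped their gene, against 70.3% in band 4, and 127 (10.9%) lay outside it by more than 10 kb. Distances given from a gene run from the middle of the site to the nearer gene end, and distances outside a gene from the edge of the site. Weak sites covered a transcription start in 43.6% of cases (40.7 to 46.5%), band 1 in 43.1% and band 4 in 35.0% (32.5 to 37.6%). The nearest start lay at a median of 337 bp from the centre of weak sites, 405.5 bp in band 1 and 514 bp in band 4. Starts on both strands, the layout of a bidirectional promoter, lay under 6.21% of weak sites and 4.37% of those in band 4. Over 10 kb from any start of the promoter table lay 30.9% of weak sites and 30.1% of band 4, so weak sites were not a set of sites remote from genes.

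Weak sites near a start were centred on it, while strong sites were centred upstream. Among the 632 weak sites within 1 kb of a start, the middle of the site lay at a median of -11 bp, and 297 (47.0%, 43.0 to 51.0%) lay downstream of the start. The medians were -29, -59, -72 and -106 bp in bands 1 to 4, with 40.4%, 32.4%, 30.9% and 27.3% (24.1 to 30.7%) downstream. The share downstream thus fell step by step with WT signal, and the intervals of the weak class and of band 4 did not overlap. With starts of the assigned gene alone it was 44.0% at weak sites and 22.4% in band 4. Without sites that cover starts on both strands the 2 values were 47.6% and 26.7%. These alternatives were chosen after seeing the data. The site of Atg10, an enzyme of autophagosome formation, lay exactly on a start, that of Ap5z1 1 bp upstream and that of Cct6b, a chaperonin subunit, 1 bp downstream. Reads at Atg10 were 32, 20 and 9 against 3, 2 and 0, at Ap5z1 19, 23 and 14 against 3, 1 and 0, and at Cct6b 15, 16 and 13 against 2, 2 and 0. The third WT library was the lowest at Atg10 by a wide margin, and the WT libraries at Cct6b were more even.

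**Figure D3:**
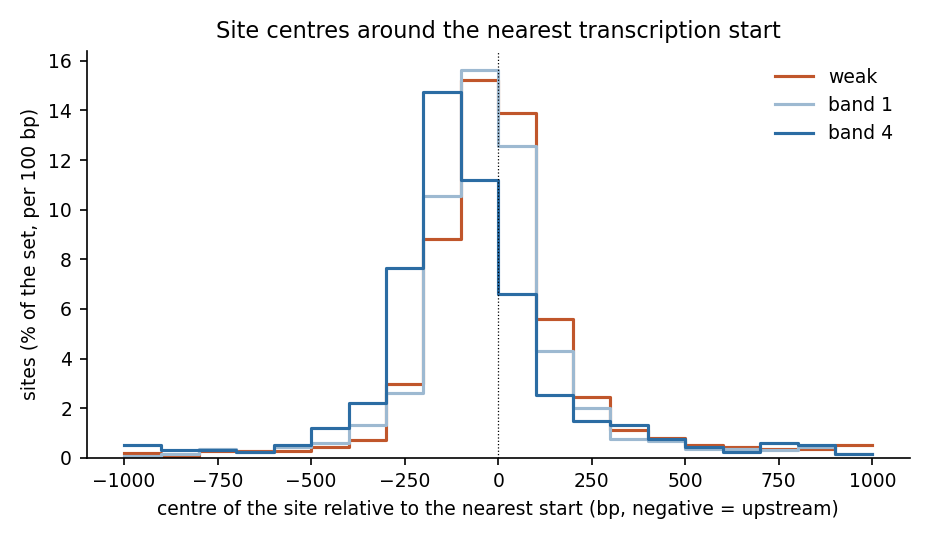
Position of the middle of each site relative to the nearest RefSeq transcription start (horizontal axis, bp, negative upstream), as the percentage of the sites of each set that fall in each bin of 100 bp (vertical axis), for weak sites and bands 1 and 4 of the other sites higher in WT. The weak profile is centred near the start, with a median of -11 bp within 1 kb, and that of band 4 lies upstream, with a median of -106 bp.

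Weak sites were also divided by their distance from a start. The WT mean, which the rule bounds, was 17.1 normalized reads for the 499 sites that cover a start (± 1.497, SD, n = 3), for the 292 others at 10 kb or less (± 1.501) and for the 353 farther away (± 1.66). The UTX-deficient means were 0.877, 0.830 and 0.939 in the deeper library and 1.56, 1.42 and 1.81 in the second, highest in both for the sites farthest from a start. Median folds in the authors' deposited table were -2.68, -2.70 and -2.56. The farthest from its assigned gene was a site 609008 bp outside Cntn5, a neuronal adhesion protein, with 27, 22 and 7 reads against 2, 0 and 0. A site 491436 bp outside Acvr2a, an activin receptor, had 20, 16 and 12 against 2, 4 and 0. The site assigned to the ribosomal protein gene Rplp1 lay 210554 bp outside it, with 21, 19 and 8 against 2, 3 and 0. At such distances the assignment names the gene the authors listed and no more.

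Weak sites stood alone more often than stronger ones. Of the 5222 genes with a site higher in WT, 1138 (21.8%) had a weak site, and in 851 of these (74.8%) all sites were weak. A single weak site was the only site of 834 genes. The gene held another site at 28.9% of weak sites (26.3 to 31.6%), against 32.3%, 36.2%, 39.8% and 45.3% (42.7 to 48.0%) in bands 1 to 4. The nearest other site lay 46648 bp away at the median, against 37940 bp in band 1 and 21749 bp in band 4. The order was the same at each kind of place: over starts the gene held another site at 10.4% of weak sites and 26.2% of band 4, and at over 10 kb from a start at 48.7% and 66.3%. Over starts, most sites of every set were thus the sole site of their gene, and weak sites most often. Sites that missed the authors' FDR limit are not counted, so a sole site is sole within the table.

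In 287 genes a weak site accompanied a stronger one. At 339 weak sites the gene held another site, and at 305 of these its strongest site lay outside the class. Over all 339, the strongest site of the gene lay a median of 1.23 above the weak one in WT concentration (log2). It lay over 2 above at 70 sites. The largest gap, 3.44, was at Plaur, the urokinase receptor, where the weak site inside the gene (chr7:24467876-24468276) gave 18, 8 and 16 WT reads and the site upstream (chr7:24457870-24458270) 166, 166 and 124. UTX-deficient reads at these 2 Plaur sites were 2, 1 and 0, and 5, 17 and 0. At Tle4, a Groucho-type corepressor, the weak site 95780 bp outside the gene gave 14, 21 and 13 against 1, 3 and 0, and the site over the start 228, 160 and 114 against 17, 27 and 0. At Ikzf1, which encodes the lymphoid regulator Ikaros, both sites lay inside the gene. The weak Ikzf1 site gave 20, 18 and 14 against 1, 0 and 0 and the strong one 203, 165 and 117 against 13, 18 and 0. Tmsb10, an actin-binding thymosin, had a weak site with 21, 12 and 10 against 1, 0 and 0 and a strong site with 195, 143 and 96 against 3, 18 and 0. Each of these genes thus held sites of very different strength, all of them higher in WT by the choice of sites. Several weak sites in 1 gene were uncommon: 33 genes had 2, and Ninj2, an adhesion protein, had 3 of its 6 sites in the class. The Ninj2 sites gave 24, 16 and 11, 23, 21 and 13, and 25, 20 and 10 WT reads.

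Of 452 genes on 18 lists, 238 had a site higher in WT and 51 of these (21.4%) had a weak site, close to the 21.8% of all genes with a site. The lists were drawn up with earlier results of these data known, and the counts are descriptions. The 55 weak sites at list genes had, by the authors' deposited table, a median fold of -2.54 (log2), beside -2.66 for the whole class. Only 9 of the 55 covered a start and 20 lay outside their gene. Within 10 kb of an end of the gene, 34 list genes had a weak site.

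Among 30 genes of progenitor or stem-like T cells, 25 had a site and 9 a weak one: Bach2, Cxcr5, Foxo1, Foxp1, Il7r, Klf2, Lef1, S1pr1 and Satb1. In 7 of the 9 the weak site accompanied stronger ones. Bach2, a repressor that restrains effector differentiation, held 10 sites, of which 2 were weak: 1 inside the gene (chr4:32239738-32240138), with 24, 19 and 12 reads against 2, 0 and 0, and 1 outside it, with 23, 16 and 8 against 2, 2 and 0. The strongest Bach2 site gave 127, 93 and 80 WT reads. Lef1, a partner of TCF1 in the progenitor program, had 1 weak site among 7, with 20, 19 and 15 against 2, 5 and 0, and Foxp1, a factor of T cell quiescence, 2 among 8. Klf2, which drives genes of lymph node exit, had its strong site over the start, with 177, 136 and 98 WT reads, and its weak site 9431 bp from the gene, with 25, 16 and 7 against 2, 1 and 0. S1pr1, the exit receptor under KLF2, had 1 weak site among 6, 14434 bp from the gene, with 20, 12 and 15 against 2, 1 and 0. The genes of this list that had weak sites alone were Foxo1 and Satb1.

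Foxo1, the factor that maintains Klf2, Il7r and other genes of resting T cells, had its 2 sites in the class. The site inside the gene (chr3:52343587-52343987) gave 20, 17 and 10 reads against 1, 2 and 0, and the site 70119 bp from the gene (chr3:52198018-52198418) 22, 19 and 16 against 1, 2 and 0. The authors' deposited table gave them log2 folds of -2.51 (FDR 0.0214) and -3.07 (FDR 0.00104). The UTX-deficient reads of the 2 Foxo1 sites were the same, so the fold differed through the WT reads. Satb1 had its single site over the start (chr17:51833059-51833459), with 26, 17 and 8 against 1, 1 and 0 and, from the authors' deposited table, a fold of -2.89 with an FDR of 0.00939. The weak site of Il7r, the interleukin-7 receptor, gave 22, 11 and 11 against 2, 1 and 0, and that of Cxcr5, a chemokine receptor of follicular cells, 20, 10 and 11 against 1, 1 and 0.

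Cytokine receptors and JAK-STAT genes also had 9 genes with a weak site, of 25 with a site on a list of 30, and in 5 all sites were weak: Ifnar2, Il10ra, Il10rb, Stat2 and Stat4. Ifnar2, a subunit of the type I interferon receptor, gave 24, 19 and 15 against 3, 4 and 0. Stat2, which carries the interferon signal to the nucleus, had its site over the start (chr10:128270270-128270670), with 22, 11 and 13 against 1, 1 and 0. Stat4, the factor downstream of interleukin-12, gave 31, 17 and 11 against 3, 2 and 0. In WT the Ifnar2 site, at 19.5 normalized reads, was near the upper limit of the class, and the Stat2 site, at 15.2, lay below the class median of 17.3. Il10ra, the ligand-binding subunit of the interleukin-10 receptor, gave 20, 16 and 8 against 3, 2 and 0, which together with Il10rb puts both receptor subunits in the class. Jak1 had 1 weak site among 5, over its start (chr4:101265064-101265464), with 27, 18 and 10 against 2, 1 and 0, whereas its strongest site, inside the gene, gave 79, 74 and 40 WT reads. Cish, a feedback inhibitor of cytokine signalling, gave 29, 14 and 15 against 2, 0 and 0, Il6ra 21, 17 and 17 against 0, 2 and 0 and Tgfbr2 15, 15 and 12 against 1, 0 and 0.

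T cell receptor signalling genes had sites in 32 of 35 cases and weak sites in 6: Cd247, Cd6, Nfatc2, Ptprc, Sos1 and Thy1. Thy1, a surface glycoprotein of T cells, had a single site 9244 bp from the gene, with 22, 21 and 14 against 2, 1 and 0. The authors' deposited table gave the Thy1 site a log2 fold of -3.16 and an FDR of 0.000659. Nfatc2, the calcium-dependent factor NFAT1, had a single site, inside the gene, with 26, 15 and 12 against 3, 4 and 0. Within the table both genes thus had weak sites alone. Sos1, an activator of RAS, had a weak site with 19, 22 and 14 against 2, 2 and 0 and a second site just above the threshold, with 26, 20 and 14. Cd247, the zeta chain of the receptor, gave 24, 15 and 8 against 2, 1 and 0 at its weak site and 106, 82 and 69 WT reads at its strong one. The weak site of Ptprc, the phosphatase CD45, gave 29, 13 and 13 against 5, 5 and 0. These UTX-deficient reads were among the most at weak sites of list genes.

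**Figure D4:**
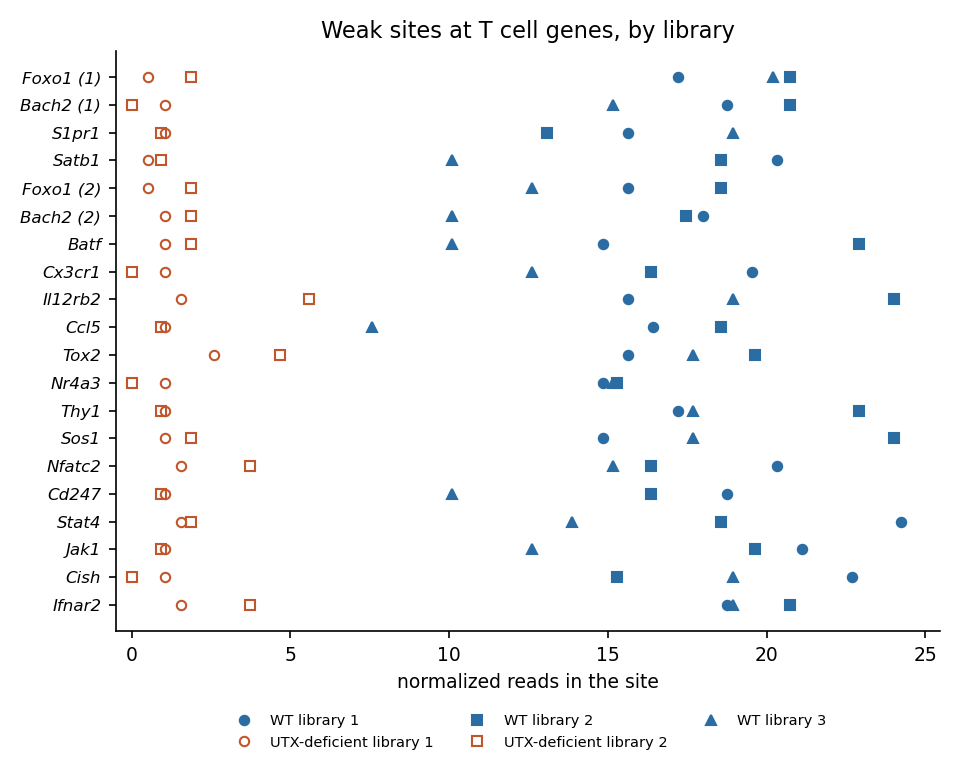
Normalized reads per library (horizontal axis) at 20 weak sites of T cell genes (vertical axis; 1 and 2 number the weak sites of 1 gene). Filled symbols are the 3 WT libraries and open symbols the 2 UTX-deficient libraries with reads; the near-empty library, at 0 throughout, is left out. At each site all WT libraries lie to the right of the UTX-deficient ones, with the closest approach at Ccl5, where the third WT library falls low.

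Genes of effector and exhausted cells had 6 genes with weak sites between them, in 3 as the only site. Of 30 effector or cytotoxic genes 17 had a site and 4 a weak one. Cx3cr1, a chemokine receptor of effector cells, had a single site, inside the gene, with 25, 15 and 10 against 2, 0 and 0. Il12rb2, a chain of the interleukin-12 receptor, had a single site with 20, 22 and 15 against 3, 6 and 0. The UTX-deficient reads at Il12rb2 were among the highest at weak sites of list genes. Batf, an AP-1 factor of activated cells, gave 19, 21 and 8 against 2, 2 and 0 at a site inside the gene, and Ccl5, a chemokine, 21, 17 and 6 against 2, 1 and 0 outside it. Of 20 exhaustion or inhibitory receptor genes 8 had a site and 2 a weak one. Tox2, a relative of the exhaustion factor TOX, had a single site, over a start (chr2:163203275-163203675), with 20, 18 and 14 against 5, 5 and 0 and, from the authors' deposited table, a fold of -1.87 with an FDR of 0.0244. Nr4a3, an early factor of receptor stimulation, had 1 weak site among 4, outside the gene, with 19, 14 and 12 against 2, 0 and 0.

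Among 30 genes of histone H3 lysine 27 and lysine 4 methylation, 18 had a site and 2 a weak one, in both beside stronger sites. Jarid2, a subunit of Polycomb repressive complex 2, gave 19, 15 and 13 against 2, 1 and 0 at a site inside the gene, the weakest of its 4. Ep300, the acetyltransferase p300, gave 20, 14 and 12 against 2, 3 and 0 at a site 46407 bp from the gene. Chromatin remodelling and acetylation genes had a weak site in 7 of 26 genes with a site: Arid2, Bptf, Chd7, Hdac1, Kat2b, Kat6a and Smarca2. Smarca2, an ATPase of the BAF complex, gave 22, 17 and 15 WT reads and none in UTX-deficient cells. Hdac1, a histone deacetylase, had a single site at an end of the gene (chr4:129542579-129542979), with 28, 16 and 13 against 2, 0 and 0. Bptf, a subunit of the NURF remodeller, had a single site, inside the gene, with 16, 19 and 15 against 0, 1 and 0, and Arid2, a subunit of the PBAF complex, gave 23, 19 and 14 against 1, 0 and 0. UTX-deficient reads at the weak sites of these 4 genes were at most 2 in any library.

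In lists of cell maintenance genes the weak sites were the only sites of their gene, except at E2f2. Of 15 cell cycle genes with a site 3 had a weak one. Cdc25b gave 23, 14 and 13 against 1, 1 and 0 over its start, Aurka 19, 14 and 17 against 2, 0 and 0 over its start, and E2f2, a factor of S phase entry, 25, 21 and 11 against 1, 3 and 0 inside the gene. For Cdc25b and Aurka this was the sole site of the gene. Of 13 ribosomal and housekeeping genes with a site 1 had a weak one, Rpl3, with 22, 20 and 8 against 1, 2 and 0. Of 19 splicing and RNA helicase genes 1 had weak sites, Ddx3x, the X-linked helicase, with 16, 21 and 10 against 3, 2 and 0 over a start and 24, 18 and 12 against 4, 6 and 0 at 53461 bp from the gene. Mitochondrial genes had a weak site in 3 of 9 genes with a site, each the gene's sole site: Mrpl12, with 23, 16 and 17 against 0, 2 and 0, Ndufb2, with 15, 19 and 12 against 3, 1 and 0, and Ndufa4, with 20, 19 and 12 and no UTX-deficient read. Ubiquitin genes had 2 of 20, Huwe1, with 23, 18 and 14 against 6, 3 and 0, and Rc3h2, a relative of the T cell regulator roquin, with 26, 11 and 11 against 1, 0 and 0.

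Developmental regulators, a set that UTX is known to control in embryonic cells, had no site in any of 30 genes. Markers of other cell types had sites in a minority of the genes on each list. Of 12 B cell markers 1 had a site, of 12 CD4 and regulatory T cell markers 4, of 12 natural killer and innate lymphoid markers 4, and of 16 pancreatic, stromal and endothelial markers 1, and none of these was weak. Of 16 myeloid and dendritic markers 2 had a site, Cebpb and Spi1, and both had weak sites alone. Cebpb gave 24, 19 and 8 against 3, 1 and 0 at 8432 bp outside the gene, and Spi1 18, 26 and 7 against 2, 2 and 0 at 3818 bp from an end. The WT libraries at Spi1 were the least even of these (17.1 ± 10.1 normalized reads, SD, n = 3). Foxp3, the defining factor of regulatory T cells, had no site in the table, although 4 of the 12 markers on its list had one. Whether other cells contributed to the weak sites of Cebpb and Spi1 was not tested.

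Weak sites were spread over the chromosomes. Their share of the sites higher in WT ran from 13.0% on chromosome 15 (36 of 276) to 22.3% on chromosome X (23 of 103, 14.7 to 31.6%), with 22.1% on chromosome 4 (101 of 457). No weak site lay on chromosome Y or on an unplaced contig.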

How the data were processed

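UTX CUT&Tag was measured in 6 libraries, 3 WT and 3 UTX-deficient, grouped by the genotype in the labels, and only the authors' table comparing both groups was analysed. The submitters' processing notes name DiffBind, MACS2, Picard, SAMtools, Bowtie2, cutadapt and FastQC and the build mm10, without roles or versions. The columns are those of DiffBind, per the file headers: deposited concentrations are mean normalized reads on a log2 scale, with a floor of 0, and the deposited fold is likewise log2, negative where WT is higher. Each site also has a deposited p-value and FDR from the authors' fit, and the largest deposited FDR is 0.0499822. Whether peaks were called per library or on pooled libraries is not stated. IgG control libraries were not used here.

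The weak class and the gene lists were chosen with earlier results of these data known. No test was computed. Whole reads were recovered because the unlogged concentration of a group, times its 3 libraries, adds up whole reads weighted by library depth (1 read counts as 0.782, 1.09 and 1.26 normalized reads in WT; 0.517, 0.932 and 173.2 in UTX-deficient cells). Where UTX-deficient cells lay at the floor, the concentration over all 6 libraries gave the sum. All 1173 weak sites had 1 solution in each group, as had 5539 of the other 5545 sites higher in WT. Of sums shifted at random, 0.0853% were solved for WT and 0% for UTX-deficient cells. Tested on 3 simulated tables, the recovery solved 3609 of 3609 weak sites, with 0 wrong. Recovery was added after the table had been seen to allow it, and the depth of the near-empty library is 6 less the other 5 depths. Reads carry no molecular identifiers, and intervals (exact, 95%) cover counting error of sites or promoters alone.

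Sites were placed by the authors' gene symbol against RefSeq genes of GRCm38.p6 (1162 weak sites matched) and by the starts of the RefSeq promoter table of the same assembly. Named sites were the 6 with the lowest WT concentration, 4 on each side of the threshold, the 6 smallest and 4 largest FDR values, the 4 largest and 4 smallest folds, up to 4 genes per list by FDR, the 4 genes with the most weak sites, the 4 largest gaps within a gene, and the 3 closest to a start and 3 farthest from their gene, with gene models known only by a number passed over. Other list genes are named because each list is given in full. The 18 lists cover T cell, cytokine, chromatin, developmental, cell maintenance and other-cell-type genes. Alternatives varied the threshold, the FDR, the windows, the start set and the libraries. Scripts ran in Python 3.11.15 with numpy 2.4.6, pandas 2.3.3 and scipy 1.17.1.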

Additional observations from a re-analysis of the deposited data

How the results depend on the processing

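The class is set by its threshold: a limit of 4 on the WT concentration gave 327 sites, a limit of 4.5 gave 1839, and an FDR under 0.01 or 0.001 left 489 or 35. The share within 1 kb of an end of the assigned gene, 54.6%, was 58.8% and 62.9% at those FDR values, 49.6% for 500 bp, 66.1% for 5 kb and 60.02% for the end of any gene. The share overlapping the gene, 79.1%, was 74.3% at an FDR under 0.001 and 59.0% where most of the site had to lie inside. The share with another site in the gene, 28.9%, was 22.9% at an FDR under 0.001, and 13.1% had another site within 10 kb. By the authors' deposited table the median fold (log2) was -2.31 at sites with a UTX-deficient concentration above the floor. Leaving out each library in turn gave WT means of 16.3 to 17.8 and UTX-deficient means of 0.441 to 1.24 normalized reads; the latter moved by over 1.5 times without the second UTX-deficient library. Non-overlap stayed at 100 to 100% of weak sites, which follows from its construction. No paired analysis was possible because the libraries in the table carry no replicate number and no test was made. Of 44 alternatives over 12 results, 30 moved the value by less than its error. Those 30 include all alternatives for non-overlap and for the UTX-deficient mean, and the fall from 51 to 34 list genes. Their number is therefore not a measure of stability. With a median of 52 WT reads per weak site, the depth limits single sites more than class means, and the near-empty library adds nothing to the UTX-deficient side.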
